A study of Mus musculus with 12 samples.

Results

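Mouse embryonic stem (ES) cells that had expressed Neurog1 for 72 h were compared with the same kind of cells after 24 h, gene by gene. The members are 6 of the 12 arrays of the series, 3 titled for 72 h of Neurog1 expression and 3 for 24 h, chosen by their titles alone. A tetracycline-inducible Neurog1 transgene was carried by the line, Ainv15, an E14 derivative of the 129P2/OlaHsd strain. Both groups received doxycycline at 1 ug/ml, the first for 72 h and the second for 24 h, and the labels' protocols describe culture in serum with leukaemia inhibitory factor, puromycin and G418 for the line. The sources used here do not give whether that medium was kept during induction or whether more than 1 clone was used. The other 6 arrays held cells induced for 48 h and uninduced cells of the maintenance culture (0 h), 3 of each, and serve below only to place the levels in time. Since 72 h of induction was also a longer time in culture and in doxycycline, these cannot be told apart. The labels call the arrays biological replicates without saying that they came from separate cultures, so the p-values measure the spread between these arrays.

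Neurog1 is a proneural basic helix-loop-helix (bHLH) transcription factor. Such factors pair with E proteins, bind E-box sequences and switch on other bHLH genes, Notch ligands and, later, genes of the neuronal cytoskeleton and synapse. In the embryo Neurog1 acts in precursors of cranial and dorsal root sensory ganglia and in parts of the neural tube. The comparison addresses how expression differs between an early and a late point of that programme in ES cells.

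Values are array signals on a linear scale, given for replicates 1, 2 and 3 in that order. Differences are 72 h minus 24 h of log2(signal + 16), with the standard error (SE) from limma and n = 3 arrays per group. On that scale dim genes appear to change less than they did. A gene was called where limma's adjusted p (Benjamini-Hochberg over all genes tested) was under 0.05. Beside each difference stands the one from the same fit without 24 h replicate 1, which leaves 2 arrays at 24 h. Genes said to have risen or fallen were called in both fits, unless a sentence says otherwise. With RNA from whole cultures, fewer cells of a type and less RNA per cell cannot be told apart.

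The first 24 h array stood apart from its group. Its log2 values correlated with those of 24 h replicates 2 and 3 at Pearson r = 0.812 and 0.787 across the genes tested, while replicates 2 and 3 correlated at 0.977 and the 3 pairs of 72 h arrays at 0.961 to 0.988. On that array 1265 genes lay at least 1 log2 unit below every other array of the series and 373 as far above. The 3′ over 5′ signal ratio of the array's control probe sets for pyruvate carboxylase was 6.81 on it, against 1.22 to 2.8 on the other 11 arrays. For beta-actin the same ratio was 1.42, inside the range of 1.34 to 1.54 of the other 11. The part of these values in the results below was not tested. Median signals were 23.8 to 32.8 on the 72 h arrays and 20.5 to 24.3 on the 24 h arrays.

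At 72 h 3731 of 11810 genes tested (31.6%) were called, 1939 higher (16.4%) and 1792 lower (15.2%). Without 24 h replicate 1 there were 4798 calls (40.6%), 2399 in each direction (20.3%), of which 3450 were shared with the first set in the same direction. A log2 difference of 1 or more in either direction was held by 2670 of the called genes (22.6%), 1545 higher (13.1%) and 1125 lower (9.53%). Among the biggest differences rises were the more frequent, since 146 genes rose by more than 3 log2 units and 42 fell by as much (133 and 28 without 24 h replicate 1). The higher share of the calls, 52.0%, moved to 40.0% when each array was centred on its median, a scaling that shifts the median difference of all genes from -0.01 to -0.18. Where a gene has several probe sets the brightest was used. Of 2266 called genes with several probe sets, 1765 had all of them in the direction called. Among genes named below 1 of the others ran the other way for Adam10, Ntrk2, Eya4, Kif5c, Scn3a, Robo1, Zeb1 and Lss, and further cases are given with the gene. Other probe sets are not described for the members of the p53 and muscle lists that fell. The plot of mean levels shows the rises reaching further from the diagonal than the falls.

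**Figure D1:**
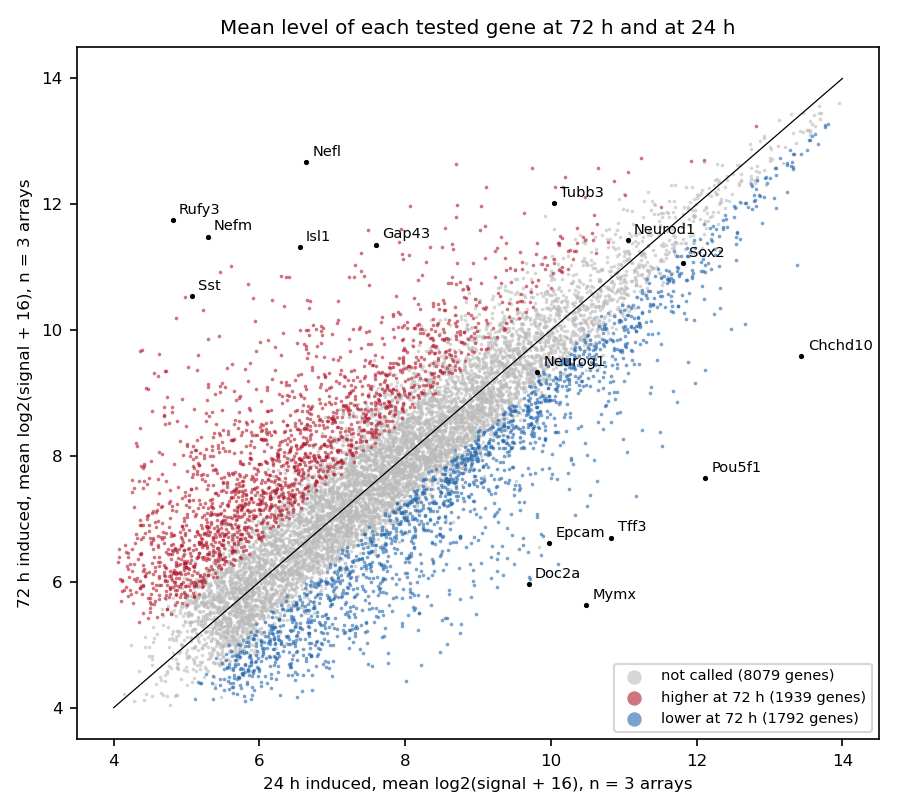
Mean log2(signal + 16) of each of the 11810 genes tested, at 72 h (vertical axis) against 24 h (horizontal axis), n = 3 arrays each. Each point is a gene, red where called higher at 72 h (1939), blue where called lower (1792) and grey where not called, and the line marks equal levels. Rufy3, Nefm and Nefl sit farthest above the line, Mymx and Pou5f1 farthest below it, and Neurog1 and Neurod1 close to it.

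The 15 largest rises were neuronal genes for the most part, and all were dim at 24 h, with no 24 h signal above the 122 of Isl1. Rufy3, whose product acts in neuronal polarity, had signals of 3782, 3419 and 3136 at 72 h, against 0.705, 18.4 and 22.1 at 24 h, a difference of 6.95 ± 0.43 (6.57 without 24 h replicate 1) with adjusted p = 1.12e-06. The neurofilament subunit genes followed. Nefm (medium chain) had 2762, 2612 and 3231 at 72 h, against 26.5, 27.1 and 16.8 at 24 h, and rose by 6.20 ± 0.43 (6.26 without it). Nefl (light chain) had 5649.9, 5975 and 8139 at 72 h, against 101, 65.1 and 88.3 at 24 h, and rose by 6.03 ± 0.29 (6.15 without it). In these 3 genes the groups lay far apart. The 6 probe sets of Rufy3 did not all run the same way, as 5 were higher at 72 h and 1 was not.

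Snap25, a SNARE protein of synaptic vesicle fusion, gave 1440.1, 1475 and 1484 at 72 h, against 3.46, 32.1 and 17.5 at 24 h, and a rise of 5.55 ± 0.32 (5.21 without 24 h replicate 1). Dcx, which encodes the microtubule-binding doublecortin of migrating young neurons, gave 2238, 2224 and 1754 at 72 h, against 17.2, 65.1 and 27.5 at 24 h, with a rise of 5.41 ± 0.31 (5.13 without it). Both were tight among the 72 h arrays. Sst, the gene of the peptide somatostatin, was uneven at 72 h, with 906, 859 and 4069.8 at 72 h, against 27.3, 19.9 and 8.39 at 24 h, and rose by 5.47 ± 0.50 (5.65 without it). On 72 h replicate 3 it was several times as bright as on the other 72 h arrays. The axon guidance receptor gene Dcc (netrin receptor) had 969, 1144 and 469 at 72 h, against 3.87, 10.1 and 1.65 at 24 h, and Ret, the tyrosine kinase receptor of the GDNF family, had 1519, 1415 and 929 at 72 h, against 11.9, 25.6 and 29.1 at 24 h. Their rises were 5.30 ± 0.34 (5.26 without it) and 5.09 ± 0.35 (4.88 without it).

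Among transcription factors in this set, Isl1, a LIM-homeodomain factor of sensory and motor neurons, had 2588, 2630.1 and 2391 at 72 h, against 44.4, 122 and 82.8 at 24 h, and rose by 4.76 ± 0.31 (4.45 without 24 h replicate 1). The bHLH gene Nhlh2 had 1491, 1579 and 2016 at 72 h, against 17.4, 49.5 and 71.3 at 24 h, a rise of 4.88 ± 0.41 (4.49 without it). Nr2f1 (COUP-TFI), a nuclear receptor of the developing nervous system, rose by 4.99 ± 0.33 (4.73 without it). The other members were Ppp1r17, an inhibitor of protein phosphatases, at 5.46 ± 0.30 (5.39 without it), Rgs4, a regulator of G-protein signalling, at 5.33 ± 0.50 (4.94 without it), and the thrombospondin-domain genes Thsd7b at 5.32 ± 0.29 (5.17 without it) and Thsd7a at 4.77 ± 0.42 (4.84 without it). One of the 3 Thsd7b probe sets was not higher at 72 h.

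Of the 15 largest falls, some were ES-cell genes and others had been high only at 24 h. Mymx, known from muscle for its part in cell fusion, had 58.5, 38.5 and 13.6 at 72 h, against 1533, 1225 and 1516 at 24 h, and fell with a difference of -4.86 ± 0.52 (-4.80 without 24 h replicate 1). Pou5f1 (Oct4), a core pluripotency factor, had 294, 257 and 78.7 at 72 h, against 6676, 3919 and 3295 at 24 h, a difference of -4.47 ± 0.45 (-4.17 without it) with adjusted p = 1.94e-05. Both were bright in uninduced cells too, Mymx at 597 to 1797 and Pou5f1 at 4936 to 6063. Utf1, another gene of undifferentiated ES cells, differed by -3.81 ± 0.56 (-3.29 without it), Tfap2c, which encodes AP-2 gamma, by -3.67 ± 0.29 (-3.50 without it), and Icam1, an adhesion receptor, by -3.57 ± 0.41 (-3.12 without it). Chchd10, of the mitochondrial intermembrane space, had 1039.8, 1093 and 368 at 72 h, against 13172, 9819 and 10508 at 24 h, and differed by -3.86 ± 0.43 (-3.73 without it). Slc7a7, an amino acid transporter gene, differed by -3.82 ± 0.40 (-3.52 without it), Nupr1, a stress-response gene, by -3.62 ± 0.31 (-3.66 without it), Hsd17b14, a dehydrogenase, by -3.59 ± 0.43 (-3.08 without it), and Accsl by -3.54 ± 0.41 (-3.23 without it).

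A group within the largest falls was low in uninduced cells, high at 24 h and low again at 72 h. Tff3, a secreted trefoil peptide, had 119.8, 123 and 43.7 at 72 h, against 3147, 1340.5 and 1383 at 24 h, and 2.93 to 35.6 in uninduced cells. Doc2a, a calcium sensor of vesicle release, had 63.6, 54.4 and 27.3 at 72 h, against 1243, 665 and 645 at 24 h, and 12.6 to 27.8 in uninduced cells. Tbx4, a T-box factor known from hindlimb and lung, had 36.8, 33.3 and 18.8 at 72 h, against 828, 472 and 292 at 24 h, and 2.6 to 15.2 in uninduced cells. Their differences between 72 and 24 h were -4.13 ± 0.48 (-3.73 without 24 h replicate 1), -3.73 ± 0.31 (-3.43 without it) and -3.48 ± 0.35 (-3.11 without it). For Doc2a and Tbx4 the 48 h arrays, at 52.1, 42.8 and 41 and 45.7, 74.3 and 52.1, were already near the 72 h level, while Tff3 was at 310.4, 519 and 687 at 48 h. Fbp1, of gluconeogenesis, and Ms4a10 of the membrane-spanning 4A family had the same shape with some signal in uninduced cells, and differed by -3.56 ± 0.31 (-3.29 without it) and -3.60 ± 0.45 (-3.24 without it).

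**Figure D2:**
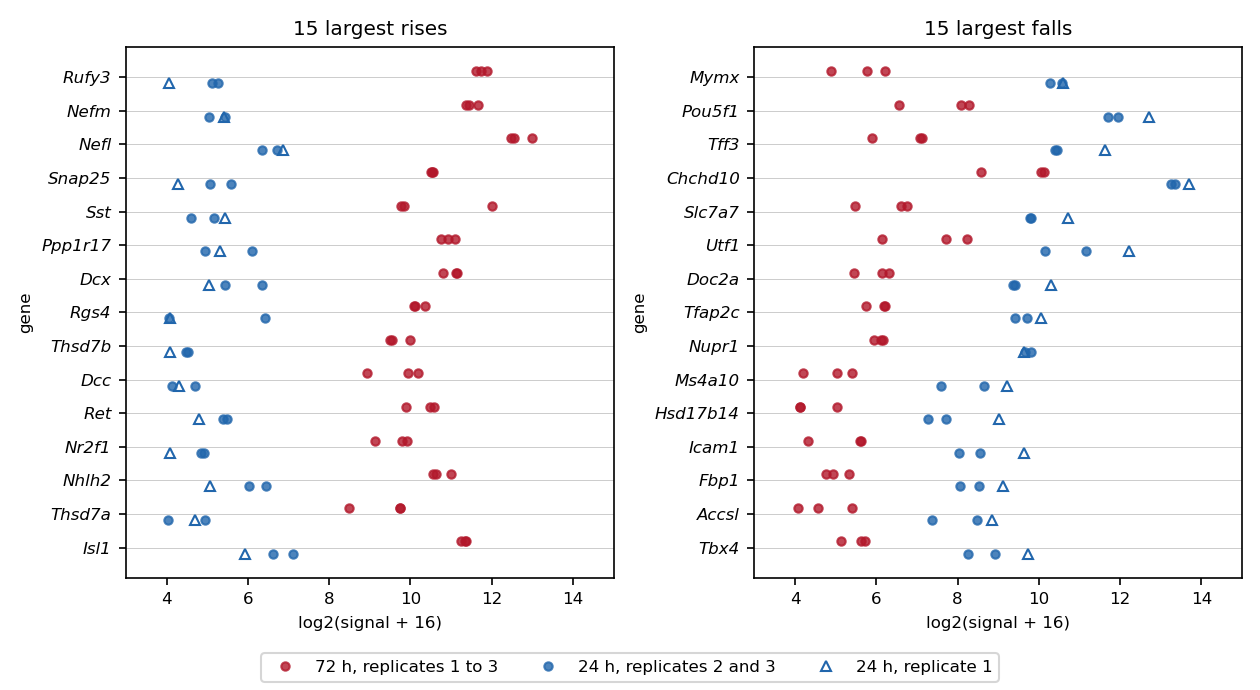
Signal plus 16 on a log2 axis on each of the 3 arrays at 72 h (red) and 24 h (blue) for the 15 largest rises and the 15 largest falls, 1 gene a row, with 24 h replicate 1 drawn as a triangle. In each of the 30 genes the 72 h and 24 h arrays do not overlap, as the rule required (of all genes tested 22.7% were so separated and higher, 21.9% lower), and Sst is the rise whose 72 h arrays are most spread.

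Proneural factors are known to favour the E-box CAGATG, read on the other strand as CATCTG, so the 250 bases before the start of the most changed genes were searched for either spelling on both strands. Sequences are RefSeq's, on GRCm38.p6, and 9 of the 15 largest rises and 10 of the 15 largest falls had one in the table. The motif was in 3 of the 9 and in 3 of the 10. It was in 12.8% of promoters of genes called higher and in 11.7% of those called lower, against 11.8% over all genes tested and 16.3% over the whole table of 27025 genes. The promoters of 2 genes of each direction are shown, to set the motif in its context, 5′ to 3′ on the gene's strand, with the motif in capitals. The window of Nhlh2 lies at chr3:102009895-102010144 (+), Rgs4 at chr1:169747643-169747892 (-), Tbx4 at chr11:85896515-85896764 (+) and Ms4a10 at chr19:10974701-10974950 (-).
Nhlh2: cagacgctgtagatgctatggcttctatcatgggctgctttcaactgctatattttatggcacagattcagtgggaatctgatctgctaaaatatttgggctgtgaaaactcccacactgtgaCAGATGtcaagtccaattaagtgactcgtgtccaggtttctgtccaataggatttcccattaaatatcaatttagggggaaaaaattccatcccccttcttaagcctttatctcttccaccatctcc
Rgs4: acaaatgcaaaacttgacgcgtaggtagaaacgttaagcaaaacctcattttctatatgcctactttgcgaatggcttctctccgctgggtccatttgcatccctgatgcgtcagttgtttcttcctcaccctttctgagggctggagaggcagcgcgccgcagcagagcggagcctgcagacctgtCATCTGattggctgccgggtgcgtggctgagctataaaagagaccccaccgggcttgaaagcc
Tbx4: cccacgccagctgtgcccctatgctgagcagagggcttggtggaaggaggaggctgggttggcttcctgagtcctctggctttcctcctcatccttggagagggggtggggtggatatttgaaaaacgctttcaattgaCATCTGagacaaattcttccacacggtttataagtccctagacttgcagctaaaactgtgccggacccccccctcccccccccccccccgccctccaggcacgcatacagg
Ms4a10: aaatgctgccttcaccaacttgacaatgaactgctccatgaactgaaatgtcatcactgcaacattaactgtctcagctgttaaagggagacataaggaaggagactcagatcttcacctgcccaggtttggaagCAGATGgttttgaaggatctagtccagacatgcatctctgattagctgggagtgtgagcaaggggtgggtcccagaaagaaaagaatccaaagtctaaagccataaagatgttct
The motif begins 127 bases before the start in Nhlh2, 63 in Rgs4, 111 in Tbx4 and 115 in Ms4a10. A match describes letters in this window alone.

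Neurog1 itself was present at both times. Its signals were 783, 679 and 465 at 72 h, against 756, 931 and 974 at 24 h, a difference of -0.48 ± 0.27 (-0.59 without 24 h replicate 1) that was not called (adjusted p = 0.186, and 0.0694 without that array). With that array left out it was called lower when the arrays were also centred on their medians (-0.71, adjusted p = 0.0186) or blocked by replicate number (-0.65, adjusted p = 0.0129). Both of its probe sets were lower at 72 h, and the uninduced arrays read 4.53 to 18.7. The probe sets were not traced to the transgene or to the endogenous gene. Neurod1, a bHLH target of neurogenins, was likewise high already at 24 h, with 2534, 3024 and 2712 at 72 h, against 1543, 2792 and 2172 at 24 h, and a difference of 0.38 ± 0.45 (0.16 without it) (adjusted p = 0.544). Neurod4, another such target, was lower at 24 h, with 743, 633 and 518 at 72 h, against 81.3, 365 and 206 at 24 h, and rose by 1.67 ± 0.39 (1.14 without it), a call that was lost when only the 6 arrays compared were fitted (adjusted p = 0.0557). It was highest at 48 h, at 808, 1106 and 992, and 1 of its 3 probe sets was not higher at 72 h than at 24 h.

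Beyond the first bHLH genes, many factors that act downstream in the cascade rose. Of 33 proneural factors and early targets tested, out of 39 on the array, 18 were called higher and 2 lower, with a median log2 difference of 1.57 (19, 3 and 1.14 without 24 h replicate 1), beside a median of -0.01 over all genes. Onecut2, a cut-homeodomain factor, had 2013, 2089 and 1430.3 at 72 h, against 18.9, 97.2 and 138 at 24 h. Elavl4 (HuD), a neuronal RNA-binding protein, had 1808, 1958 and 1732 at 72 h, against 21.7, 104 and 107 at 24 h. On both, 24 h replicate 1 was the dimmest array of its group. Their rises were 4.44 ± 0.43 (3.80 without it) and 4.49 ± 0.43 (3.93 without it). The helix-loop-helix gene Ebf1 rose by 3.73 ± 0.31 (3.65 without it), the chemokine receptor gene Cxcr4 by 3.48 ± 0.32 (3.37 without it), and the zinc-finger genes Myt1 and St18 by 3.36 ± 0.31 (3.33 without it) and 2.75 ± 0.41 (2.68 without it). Sox11 and Sox4, which act in newborn neurons, rose by 2.64 ± 0.30 (2.83 without it) and 1.51 ± 0.32 (1.44 without it), and the E-protein genes Tcf12 and Tcf4, partners of proneural factors, by 2.13 ± 0.47 (1.38 without it) and 1.58 ± 0.50 (0.78 without it).

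The 2 members that fell are early targets of proneural factors. Hes6, which counters Hes1, had 445, 471 and 306 at 72 h, against 3630.4, 1502 and 1394 at 24 h, and 79.3 to 158 in uninduced cells. Gadd45g, of the growth-arrest family, had 165, 197 and 132 at 72 h, against 1651, 1285 and 804 at 24 h, and 107 to 137 in uninduced cells. They were highest at 24 h among the 4 times and differed by -2.25 ± 0.36 (-1.81 without 24 h replicate 1) and -2.76 ± 0.27 (-2.53 without it).

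In the Notch pathway, by which a young neuron's Delta ligands hold back its neighbours, the called members went both ways. The ligand gene Dll1 had 420.0, 469 and 317 at 72 h, against 1793, 1139.7 and 872 at 24 h, and fell by a difference of -1.57 ± 0.32 (-1.29 without 24 h replicate 1). Dll3 and Dll4 were called lower on all arrays, at -1.35 ± 0.46 (-0.93 without it) and -1.18 ± 0.37 (-0.73 without it), but not without 24 h replicate 1, where adjusted p was 0.0841 and 0.0574. Hes5, the Notch effector of neural progenitors, had 1191, 1040.2 and 532 at 72 h, against 159, 75.2 and 31.5 at 24 h, and rose by 3.28 ± 0.41 (3.75 without it) (adjusted p = 9.52e-05). Jag1, a ligand of another class, rose by 2.13 ± 0.27 (2.08 without it), Hey1, an effector, by 1.44 ± 0.25 (1.55 without it), Mib1, the ligase that activates Delta ligands, by 2.19 ± 0.61 (1.18 without it), Adam10, the protease that cuts Notch, by 1.85 ± 0.44 (1.14 without it), and Dner, a neuronal transmembrane protein with EGF repeats, by 3.67 ± 0.27 (3.68 without it). Hes1 was 120.3, 116 and 181 at 72 h, against 321, 197 and 231 at 24 h, a difference of -0.77 ± 0.29 (-0.59 without it) that was not called (adjusted p = 0.0581). Other settings did call it lower, among them median centring (-0.94, limma adjusted p = 0.0311), quantile normalization (-0.98, 0.0222) and array weights (-0.81, 0.0132). Over all 35 members tested of 38 on the array, 7 were called higher and 4 lower (7 and 2 without that array), or 31.4%, close to the 31.6% of all genes.

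Most genes of sensory neurons and placodes that passed the filter rose. A gene could pass it through its 72 h level alone, which partly fixes the direction for members dim at 24 h. This limit also applies to the neuronal lists below of which many members did not pass. Of 27 tested, from 40 on the array, 19 were called higher and 1 lower, with a median of 1.63 (20, 1 and 1.81 without 24 h replicate 1). Pou4f1 (Brn3a), a POU-homeodomain factor of sensory neurons, had 1485, 1656 and 1207 at 72 h, against 18.3, 55.7 and 73.7 at 24 h, and rose by 4.59 ± 0.36 (4.18 without it). Shox2, a homeodomain factor of touch-receptor neurons, rose by 4.55 ± 0.25 (4.44 without it). The list also holds channels and receptors of these neurons. Scn9a, the sodium channel gene of pain-sensing neurons, rose by 4.63 ± 0.39 (4.63 without it). Ntrk3, the receptor gene for neurotrophin 3, was higher at 72 h on each of its 8 probe sets and rose by 3.42 ± 0.35 (3.68 without it). Ntrk2, the receptor gene for BDNF, rose by 1.74 ± 0.23 (1.86 without it), the placode genes Eya1 and Eya4 by 2.77 ± 0.38 (2.29 without it) and 2.02 ± 0.28 (1.87 without it), and Prrxl1, a factor of pain-sensing neurons, by 2.37 ± 0.28 (2.52 without it). The member that fell was Gfra3, the co-receptor gene for artemin, with 107, 135 and 371 at 72 h, against 851, 399 and 799 at 24 h, and a difference of -1.78 ± 0.54 (-1.59 without it).

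Of 29 other neuronal homeodomain and late factors tested, from 46 on the array, 18 were called higher and 1 lower, with a median of 1.60 (18, 1 and 1.17 without 24 h replicate 1). Tshz1, a zinc-finger gene, rose by 2.82 ± 0.53 (2.30 without it), Meis1, a homeodomain partner of Hox proteins, by 2.60 ± 0.33 (2.45 without it), Lmo1, a LIM-only factor, by 2.45 ± 0.47 (2.61 without it), and Pou3f3 (Brn1) by 2.35 ± 0.27 (2.39 without it). Eomes, the T-box gene that counted lower, differed by -0.97 ± 0.27 (-0.92 without it).

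Structural genes of the axon and dendrite gave the highest share of calls of the 40 lists, 78.7%. All 47 genes of neuronal cytoskeleton and motors passed the filter on low values, and 37 were called, each of them higher, with a median of 1.98 (41 higher, 1 lower and 2.05 without 24 h replicate 1). Map2, the dendritic microtubule-associated protein, had 2122, 1944 and 2204 at 72 h, against 48.1, 256 and 211 at 24 h, and rose by 3.73 ± 0.42 (3.08 without it). Stmn4, a stathmin of neurons, had 732, 686 and 510.0 at 72 h, against 2.02, 5.37 and 29.6 at 24 h, and rose by 4.65 ± 0.36 (4.38 without it). Dclk1, a doublecortin-like kinase gene, was higher at 72 h on all 9 of its probe sets and rose by 4.59 ± 0.24 (4.41 without it). The motor gene Kif5c rose by 3.83 ± 0.44 (3.19 without it), Gap43, of growth cones, by 3.76 ± 0.31 (4.01 without it), and Mapt, which encodes tau, by 2.75 ± 0.29 (2.75 without it). Tubb3, the neuronal beta-tubulin, had 3910.3, 4059 and 4476 at 72 h, against 2333, 873 and 544 at 24 h, and rose by 1.98 ± 0.40 (2.56 without it) (adjusted p = 0.00247, and 2.04e-06 without that array). Its brightest 24 h array was replicate 1. Stmn1 and Tuba1a, which many dividing cells use too, had differences of 0.14 ± 0.14 (0.27 without it) and 0.14 ± 0.18 (0.30 without it) and were not called on all arrays. With quantile normalization both were called higher, at 0.60 (limma adjusted p = 0.000861) and 0.50 (0.0108).

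Neuronal RNA-binding and splicing genes gave 18 called higher and 1 lower of 28 tested, from 29 on the array, with a median of 1.16 (19, 2 and 1.05 without 24 h replicate 1). Rbfox1 and Rbfox3 (NeuN), splicing regulators of neurons, rose by 3.46 ± 0.31 (3.36 without it) and 3.11 ± 0.34 (3.30 without it), and Elavl3 (HuC) by 2.96 ± 0.33 (2.93 without it). The pair Ptbp1 and Ptbp2 moved in opposite directions. Ptbp1, the splicing repressor of non-neuronal cells, differed by -1.04 ± 0.28 (-0.66 without it), and Ptbp2, its counterpart in young neurons, by 1.78 ± 0.48 (1.04 without it). When all probe sets of Ptbp1 were averaged its difference was -0.43 and was not called (limma adjusted p = 0.2).

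Genes of the synapse and of vesicle release gave 28 called higher and 1 lower of 44 tested, from 54 on the array, with a median of 1.17 (33, 1 and 1.22 without 24 h replicate 1). Besides Snap25, Cadps, which primes dense-core vesicles, rose by 4.22 ± 0.27 (4.24 without it), Syt11 and Syt1, synaptotagmins, by 3.72 ± 0.31 (3.68 without it) and 3.10 ± 0.31 (2.81 without it), and Lin7a, a scaffold, by 3.21 ± 0.30 (3.17 without it). The lower call was Doc2a. Many ion channel genes did not pass the filter, so the limit given for sensory genes applies to them too. Of 31 ion channel genes tested, from 58 on the array, 19 were called higher and 1 lower (20 and 1 without 24 h replicate 1). Cacna2d1, a calcium channel subunit, rose by 3.85 ± 0.52 (3.12 without it), Scn3a, a sodium channel of embryonic neurons, by 2.74 ± 0.32 (2.53 without it), and Cacna1b, the N-type calcium channel of nerve endings, by 2.62 ± 0.28 (2.55 without it).

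Of 57 genes of transmitter receptors on the array 23 passed the filter, which a gene could do through its 72 h level alone. For members dim at 24 h the direction was thus partly fixed, and the count of rises alone does not show it. Receptors for transmitters gave 13 calls among the 23 tested, each of them higher, also without 24 h replicate 1, with a median of 1.24 (1.31). P2rx3, the ATP-gated channel of sensory neurons, had 735, 703 and 1325 at 72 h, against 36.7, 49.6 and 61 at 24 h, and rose by 3.80 ± 0.31 (3.66 without it). Chrna3, a nicotinic receptor subunit of peripheral ganglia, had 526, 523 and 2095 at 72 h, against 58.7, 61.2 and 55.2 at 24 h, and rose by 3.52 ± 0.46 (3.52 without it). In both genes 72 h replicate 3 was the brightest array, in Chrna3 several times as bright as the others.

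Among peptide and granin genes, 11 of 21 tested, from 37 on the array, were called higher and 2 lower (14 and 2 without 24 h replicate 1). Chgb, a granin of dense-core vesicles, had 1036, 1089.8 and 755 at 72 h, against 14.4, 59.1 and 20.5 at 24 h, and rose by 4.46 ± 0.34 (4.20 without it). Scg3, another granin, rose by 4.20 ± 0.30 (4.05 without it), and Cpe, which trims prohormones, by 2.93 ± 0.30 (2.75 without it). Trh, the gene of thyrotropin-releasing hormone, fell by a difference of -2.92 ± 0.49 (-2.46 without it). Of 16 genes of transmitter synthesis and transport tested, from 29 on the array, 3 were called higher and 2 lower (3 and 3 without that array). That share, 31.2%, was near the 31.6% of all genes. Slc18a2, the vesicular monoamine transporter, had 330.1, 302 and 1038 at 72 h, against 4.39, 18.1 and 10.8 at 24 h, and rose by 4.20 ± 0.42 (4.01 without it). Slc17a6, the vesicular glutamate transporter, had 87.7, 82.9 and 42.1 at 72 h, against 4.01, 2.15 and 0.854 at 24 h, and rose by 2.20 ± 0.31 (2.27 without it). Ddc, which makes monoamines, fell by a difference of -1.66 ± 0.29 (-1.80 without it).

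**Figure D3:**
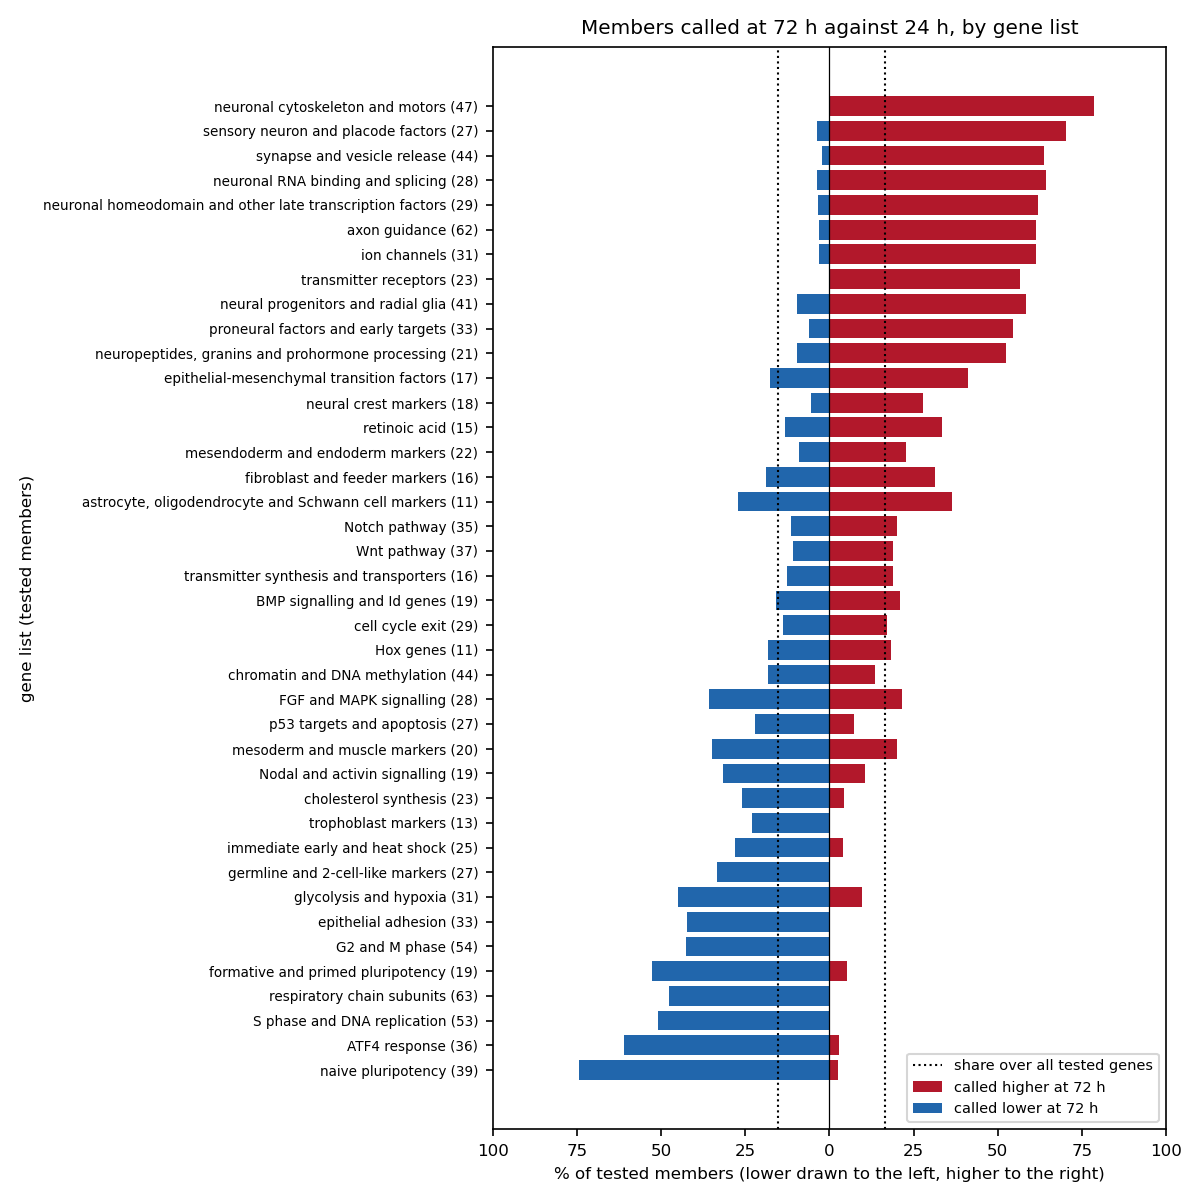
Percent of the tested members of each of the 40 gene lists that were called higher at 72 h (red, to the right) or lower (blue, to the left), 1 list a row with its number of tested members, and dotted lines at the shares over all genes tested (16.4% and 15.2%). The neuronal cytoskeleton is at the top, with 37 of 47 members higher, and naive pluripotency at the bottom, with 29 of 39 lower.

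Axon guidance and neuronal adhesion gave 38 called higher and 2 lower of 62 tested, from 72 on the array, with a median of 1.62 (43, 3 and 1.52 without 24 h replicate 1). Cntn1 (contactin) had 766, 769 and 746 at 72 h, against 12.6, 34.2 and 15.3 at 24 h, and rose by 4.45 ± 0.34 (4.29 without it). L1cam, an adhesion molecule of axons, had 696, 677 and 709 at 72 h, against 53.6, 40.3 and 34.5 at 24 h, and rose by 3.61 ± 0.25 (3.73 without it). At 48 h L1cam was at 101, 151 and 75.1, so most of its rise came on the third day. Nrcam rose by 3.22 ± 0.36 (3.15 without it), the semaphorin receptor gene Nrp1 by 2.89 ± 0.43 (2.30 without it), and the Slit receptor genes Robo3 and Robo1 by 2.54 ± 0.39 (2.56 without it) and 2.39 ± 0.31 (1.99 without it). Epha2, an ephrin receptor known from ES cells, fell by a difference of -2.81 ± 0.30 (-2.58 without it).

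Adhesion genes of epithelia that were called were lower. Of 33 tested, from 36 on the array, 14 were called, each of them lower, with a median of -0.75 (13 and -0.75 without 24 h replicate 1). Cdh1 (E-cadherin) had 283, 283 and 196 at 72 h, against 2825, 1839 and 1789 at 24 h, a difference of -2.99 ± 0.27 (-2.78 without it). Cdh2 (N-cadherin) had 1862, 1724 and 1916 at 72 h, against 95.5, 197 and 149 at 24 h, a difference of 3.55 ± 0.31 (3.30 without it). The cadherin genes thus moved in opposite directions. Epcam, an adhesion molecule of ES cells and epithelia, differed by -3.36 ± 0.30 (-3.15 without it). Of 17 factors of the epithelial-mesenchymal transition tested, 7 were called higher and 3 lower (8 and 3 without that array), and the repressor genes Zeb1 and Zeb2 rose by 1.56 ± 0.38 (1.02 without it) and 1.78 ± 0.57 (0.87 without it).

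Naive pluripotency genes were the list with the lowest median, -1.91, and 29 of 39 tested were called lower and 1 higher (30, 1 and -1.88 without 24 h replicate 1). The arrays are labelled as ES cells, yet at 72 h the defining markers were low. Nanog had 156, 183 and 91.6 at 72 h, against 589, 949.8 and 838 at 24 h, and 3227 to 4042 in uninduced cells. Zfp42 (Rex1) had 468, 474 and 272 at 72 h, against 1157, 3232 and 1846 at 24 h, and 6174 to 6749 in uninduced cells. Esrrb, an orphan nuclear receptor of naive cells, had 47.8, 36.7 and 27.5 at 72 h, against 480.4, 521 and 284 at 24 h, and 862 to 1161 in uninduced cells. Nanog and Zfp42 had thus lost most of their signal by 24 h, and their further differences were -2.36 ± 0.38 (-2.56 without it) and -2.23 ± 0.36 (-2.59 without it), that of Esrrb -3.03 ± 0.31 (-2.93 without it). Pou5f1 kept more of its signal at 24 h, as given above. Klf2, a Krüppel-like factor, differed by -3.23 ± 0.53 (-2.75 without it), and Fgf4, the ES-cell growth factor, by -2.57 ± 0.59 (-2.05 without it). Sox2, which neural progenitors share with ES cells, had 2081, 1918 and 2425 at 72 h, against 3331, 4106 and 3337 at 24 h, and fell by 0.74 ± 0.16 (-0.79 without that array), a call that was lost on only the 6 arrays compared (adjusted p = 0.0511). The exception was Prdm14, with 124, 116 and 71.8 at 72 h, against 47.6, 41 and 22.2 at 24 h, a rise of 1.18 ± 0.40 (1.33 without it), and 122 to 372 in uninduced cells.

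Formative and primed genes, which mark cells leaving the naive state, gave 10 called lower and 1 higher of 19 tested (9 and 2 without 24 h replicate 1). Nodal had 113, 84.3 and 26.5 at 72 h, against 706, 618 and 492 at 24 h, a difference of -2.91 ± 0.37 (-2.79 without it), Otx2, a homeodomain factor of formative cells, one of -2.91 ± 0.72 (-2.74 without it), and Etv5, an ETS factor downstream of FGF, one of -3.03 ± 0.36 (-2.60 without it). Fgf5, the classic primed marker, was 14.5, 40.8 and 12.3 at 72 h, against 216, 85.8 and 30.2 at 24 h, with a difference of -1.49 ± 0.52 (-0.91 without it) that was called on all arrays (adjusted p = 0.0455) and not without 24 h replicate 1 (0.133).

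Germline and 2-cell-like genes that ES cells express gave 9 calls of 27 tested, from 35 on the array, each of them lower (14, each lower, without 24 h replicate 1). The share called on all arrays was 33.3%, beside 31.6% of all genes, of which 15.2% were called lower. Without 24 h replicate 1, 40.6% of all genes were called and 20.3% were called lower. Ooep, of the oocyte's subcortical complex, differed by -3.21 ± 0.38 (-3.04 without it), Tex19.1 by -2.66 ± 0.34 (-2.34 without it), and Hormad1, of meiotic chromosome axes, by -1.48 ± 0.52 (-2.22 without it). Summed over the 27 members the signal was 3811 to 3974 on the 72 h arrays, against 7692 to 12683 on the 24 h arrays.

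Of 44 genes of chromatin and DNA methylation tested, 6 were called higher and 8 lower on all arrays, or 31.8% beside 31.6% of all genes. The median was -0.02 (8, 16 and -0.02 without 24 h replicate 1). In the fit without 24 h replicate 1, 20.3% of all genes were called in each direction, so the 16 lower calls exceeded that share. The falls were led by the DNA methylation machinery. The de novo methyltransferase genes Dnmt3a and Dnmt3b differed by -2.31 ± 0.26 (-2.15 without it) and -1.41 ± 0.42 (-1.03 without it), their cofactor Dnmt3l by -1.90 ± 0.49 (-1.33 without it), and Dnmt1, the maintenance enzyme, by -0.77 ± 0.23 (-0.52 without it). Of the 5 Dnmt3a probe sets 1 went against that direction, as did 1 of the 4 of Tet1. Tet1, a methylcytosine oxidase, had 305, 267 and 201 at 72 h, against 243, 2028 and 1549 at 24 h, so that 24 h replicate 1 lay among the 72 h arrays, and its difference of -1.80 ± 0.58 (-2.73 without it) depends on that array. Of the subunits that BAF remodelling complexes exchange as neurons form, Actl6b, the neuronal one, had 54.8, 59 and 38.9 at 72 h, against 2.26, 8.15 and 0.514 at 24 h, and rose by 1.77 ± 0.33 (1.73 without it). Actl6a, its counterpart in progenitors, had 1051, 1021 and 1079 at 72 h, against 2099, 1386 and 1423 at 24 h, and differed by -0.60 ± 0.21 (-0.41 without it), though 1 of its 3 probe sets was higher at 72 h.

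**Figure D4:**
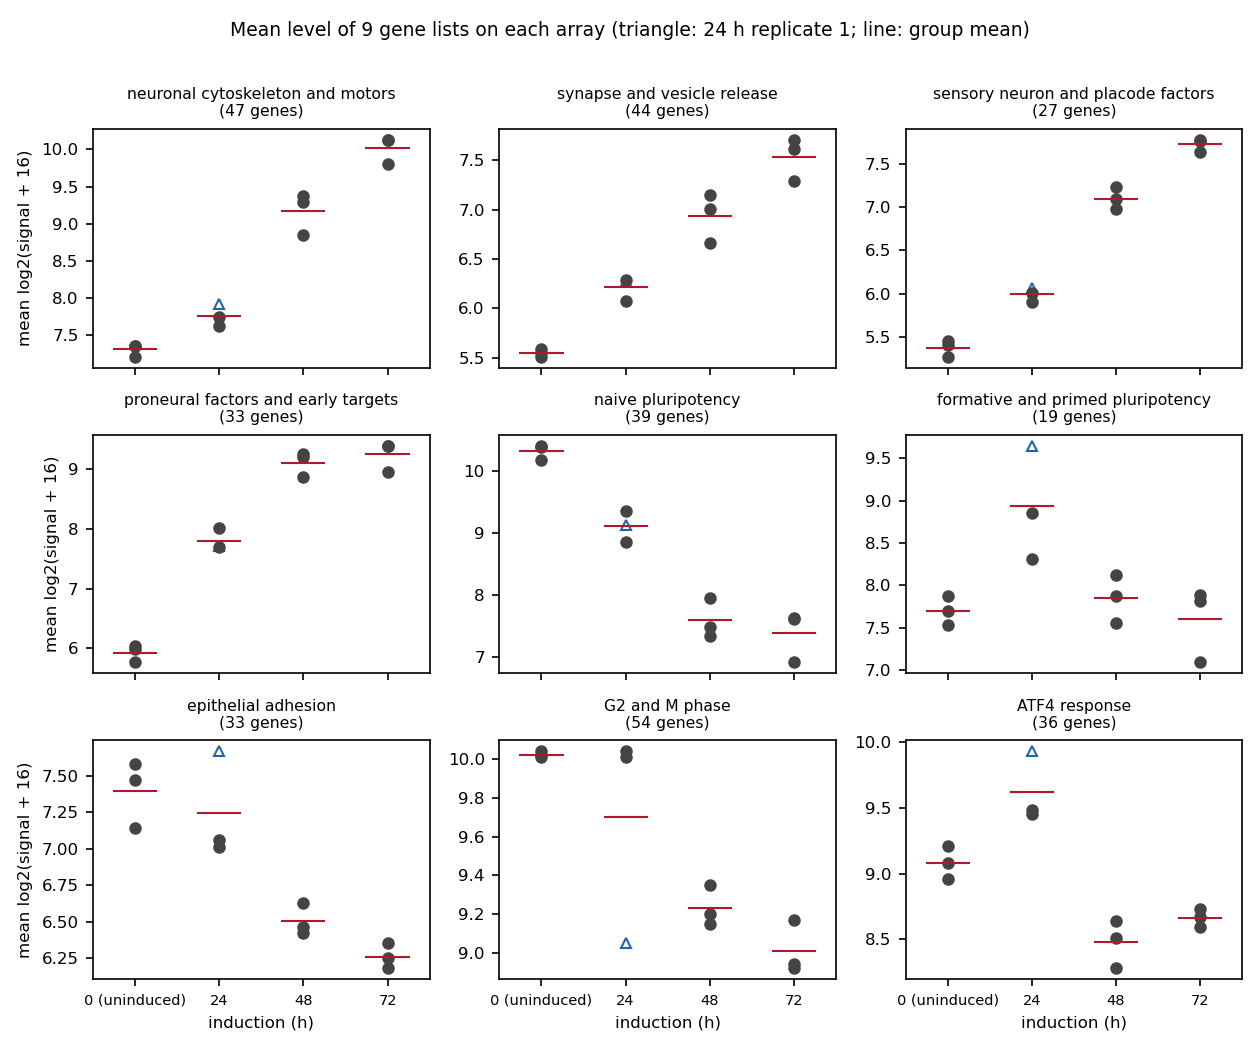
Mean log2(signal + 16) over the tested members of 9 gene lists on each of the 3 arrays at 0, 24, 48 and 72 h of induction, with a bar at each group mean and 24 h replicate 1 as a triangle. The neuronal cytoskeleton reaches 9.80 to 10.13 at 72 h, against 7.62 to 7.92 at 24 h, while for G2 and M phase 24 h replicate 1, at 9.05, lies with the 72 h arrays and not with the other 24 h arrays.

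Called genes of the cell cycle were lower at 72 h, and how many depended on 24 h replicate 1. Of 53 S phase and replication genes, 27 were called, each of them lower, with a median of -0.75 (39, each lower, and -0.68 without that array). Mcm6, of the replicative helicase, had 1014, 1169 and 1559 at 72 h, against 2201, 2599.6 and 2498 at 24 h, a difference of -0.97 ± 0.19 (-1.04 without 24 h replicate 1). Pcna, the polymerase clamp, had 3691, 4119 and 5888 at 72 h, against 6949, 7575 and 7981 at 24 h, a difference of -0.74 ± 0.18 (-0.80 without it). Replicate 3 was the brightest 72 h array for both, and neither pair of groups overlapped. Ung, which removes uracil from DNA, differed by -1.81 ± 0.26 (-1.48 without it).

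For 54 genes of G2 and M phase the count was 23, each of them lower, on all arrays and 46 without 24 h replicate 1, with medians of -0.54 and -1.07. The mean log2 level over the list was 8.94, 8.92 and 9.17 at 72 h, against 9.05, 10.04 and 10.01 at 24 h. Genes of this list disagreed on that array. Mki67, the proliferation marker, had 791, 764 and 728 at 72 h, against 95, 1353 and 1316 at 24 h, and was called only without it, at -0.80 (adjusted p = 0.000971). Ccnb2, a mitotic cyclin, had 679, 686 and 685 at 72 h, against 2542, 1839 and 1897 at 24 h, a difference of -1.58 ± 0.20 (-1.43 without it). Cdk1, its kinase, had 852, 847 and 1236 at 72 h, against 3813, 2286 and 2164 at 24 h, a difference of -1.45 ± 0.24 (-1.20 without it). In these last 2 genes 24 h replicate 1 was the brightest array of its group. Pttg1 (securin) and Ube2c, the ubiquitin-conjugating enzyme of the anaphase-promoting complex, differed by -1.98 ± 0.24 (-1.90 without it) and -1.97 ± 0.23 (-1.73 without it).

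Genes of cell cycle exit were mixed, with 5 called higher and 4 lower of 29 tested (6 and 3 without 24 h replicate 1), or 31.0% beside 31.6% of all genes. The cyclin D genes split. Ccnd2 had 738, 842 and 2172 at 72 h, against 207, 179.7 and 175 at 24 h, a rise of 2.47 ± 0.38 (2.54 without it), with 72 h replicate 3 the brightest. Ccnd1 had 1027, 1016 and 606 at 72 h, against 2992, 1511 and 1916 at 24 h, a difference of -1.24 ± 0.28 (-0.97 without it). The inhibitor gene Cdkn1c (p57) was bright at both times, with 2000.1, 1995 and 1497 at 72 h, against 2444, 1432 and 2124 at 24 h, and a difference of -0.10 ± 0.36 (0.06 without it) (adjusted p = 0.85) whose sign also turned with the scaling. Cdkn1b (p27) had 758, 695 and 356 at 72 h, against 369, 395 and 322 at 24 h, a difference of 0.65 ± 0.34 (0.66 without it) that was not called (adjusted p = 0.16). Some other settings called Cdkn1b higher, among them array weights (0.94, limma adjusted p = 0.0187). Gas1, a growth-arrest gene, rose by 2.90 ± 0.39 (3.04 without it), and Prox1, a homeodomain factor of neural differentiation, by 2.39 ± 0.35 (2.14 without it).

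The feedback inhibitors Lefty1 and Lefty2 of Nodal, and Spry4 and Dusp6 of FGF signalling, fell. Of 19 Nodal and activin genes tested, 6 were called lower and 2 higher (7 and 3 without 24 h replicate 1), and of 28 FGF and MAPK genes 10 were called lower and 6 higher (9 and 8). The shares called were 42.1% and 57.1%, beside 31.6% of all genes. Lefty1 and Lefty2 differed by -2.61 ± 0.55 (-2.82 without it) and -1.93 ± 0.51 (-2.07 without it). Spry4 and Dusp6 differed by -2.74 ± 0.43 (-2.33 without it) and -1.81 ± 0.47 (-1.65 without it). Higher members included Tgfbr1, a type I receptor gene, with 2711, 2801 and 2190.3 at 72 h, against 100.3, 670.0 and 580.0 at 24 h, a rise of 2.83 ± 0.51 (2.01 without it), and the FGF-family genes Fgf13 and Fgf18, at 2.68 ± 0.29 (2.84 without it) and 2.68 ± 0.30 (2.97 without it).

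Id proteins sequester E proteins and so hold back bHLH factors, and they are targets of BMP signalling. Id1 had 221, 387 and 796 at 72 h, against 829.6, 256 and 300.4 at 24 h, with the groups overlapping and a difference of 0.03 ± 0.52 (0.54 without 24 h replicate 1) (adjusted p = 0.97). Id3 had 291, 338 and 1540.0 at 72 h, against 34.2, 46.8 and 10.9 at 24 h, a rise of 3.65 ± 0.65 (3.75 without it), with 72 h replicate 3 several times as bright as the other 72 h arrays. Id4 rose by 1.62 ± 0.40 (1.60 without it). Of the 19 BMP and Id genes tested 4 were called higher and 3 lower (5 and 2 without 24 h replicate 1), or 36.8% on all arrays beside 31.6% of all genes. Of 37 Wnt genes tested, 7 were called higher and 4 lower in both fits, or 29.7% beside 31.6% of all genes, with a median of 0.05. Among them were Fzd3, a receptor of axon guidance, at 3.83 ± 0.56 (2.92 without it), and Sfrp2, a secreted Wnt inhibitor, at 3.77 ± 0.32 (4.00 without it). The receptor Fzd5 differed by -2.38 ± 0.24 (-2.45 without it).

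Hox genes, which give position along the body axis, had their highest list mean on replicate 3 at both times. The mean log2 level over the 11 tested members was 6.19, 6.11 and 7.37 at 72 h, against 5.96, 5.67 and 6.62 at 24 h. Hoxb4 had 82.1, 53.6 and 627 at 72 h, against 46.2, 35.3 and 107 at 24 h, with a difference of 1.16 ± 0.76 (1.04 without 24 h replicate 1) that was not called (adjusted p = 0.26). Hoxa5 had 55.3, 58 and 463 at 72 h, against 72.8, 65.7 and 285 at 24 h, with a difference of 0.07 ± 0.79 (-0.20 without it) (adjusted p = 0.953). Both are anterior-to-middle members of their clusters. Hoxa2, a hindbrain member, did rise, with 65.5, 59.6 and 94.2 at 72 h, against 18.6, 14.2 and 18.2 at 24 h, by 1.41 ± 0.24 (1.45 without it). Hoxd13, the last of its cluster, had 29.6, 29.4 and 9.72 at 72 h, against 99.3, 92.9 and 86.3 at 24 h, and differed by -1.53 ± 0.24 (-1.49 without it). Of the 15 retinoic acid genes tested 5 were called higher and 2 lower (6 and 3 without 24 h replicate 1), or 46.7% on all arrays beside 31.6% of all genes. There too replicate 3 was highest at 72 h, with a mean of 8.18, against 7.60 and 7.48 on the other 72 h arrays. Crabp1, which binds retinoic acid in the cytoplasm, had 4768, 5945 and 9164 at 72 h, against 527, 366 and 325 at 24 h, a rise of 3.95 ± 0.31 (4.15 without it). Rarg, a receptor, differed by -2.23 ± 0.40 (-1.77 without it).

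Among the lists of stress and metabolic genes, 63.9% of the ATF4 response, 54.8% of glycolysis and hypoxia genes and 47.6% of respiratory chain subunits were called, beside 31.6% of all genes, while cholesterol synthesis (30.4%), immediate early and heat shock genes (32.0%) and p53 targets (29.6%) were near that share. In these lists 24 h replicate 1 had the highest mean of the 24 h arrays, apart from p53 targets. Of 36 genes of the ATF4 response, which doxycycline is known to trigger in cells, 22 were called lower and 1 higher, with a median of -0.94 (25, 1 and -0.71 without that array). The list's mean log2 level was 8.59, 8.67 and 8.73 at 72 h, against 9.93, 9.48 and 9.45 at 24 h and 8.96 to 9.21 in uninduced cells. Asns, asparagine synthetase, had 2232, 2494 and 2736 at 72 h, against 5365, 4366 and 4791 at 24 h, a difference of -0.96 ± 0.17 (-0.88 without 24 h replicate 1). Trib3, a pseudokinase, had 95.5, 68.5 and 60.4 at 72 h, against 448, 280.1 and 331 at 24 h, a difference of -2.02 ± 0.26 (-1.84 without it). The amino acid transporter genes Slc7a3 and Slc1a5 differed by -2.25 ± 0.39 (-1.98 without it) and -2.09 ± 0.34 (-1.89 without it). Both groups were in doxycycline, for 72 and 24 h.

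Of 31 genes of glycolysis and hypoxia, 14 were called lower and 3 higher (13 and 4 without 24 h replicate 1), with Hk2, a hexokinase, at -2.12 ± 0.21 (-1.97 without it) and Epas1 (HIF-2 alpha) at -3.28 ± 0.34 (-3.11 without it). Of 63 respiratory chain subunits, 30 were called, each of them lower, with a median of -0.61 (31, each lower, and -0.37 without that array). Their mean log2 level was 10.61, 10.69 and 10.79 at 72 h, against 11.74, 11.08 and 11.10 at 24 h. The size of that difference thus depends on 24 h replicate 1. Of 23 genes of cholesterol synthesis 6 were called lower and 1 higher (6 and 2), led by Lss at -1.41 ± 0.30 (-1.16 without it) and Fdps at -1.30 ± 0.24 (-1.12 without it). Of 25 tested genes of the immediate early and heat shock responses, which handling can raise, 7 were called lower and 1 higher (9 and 3 without that array). Fos had 41.3, 33.1 and 37 at 72 h, against 63.3, 49.4 and 53.8 at 24 h, a difference of -0.43 ± 0.20 (-0.35 without it) (adjusted p = 0.129). With quantile normalization Fos was called lower (-0.73, limma adjusted p = 0.032). Jun had 931, 862 and 1611 at 72 h, against 182, 104 and 85.9 at 24 h, a rise of 3.04 ± 0.35 (3.32 without it). Hspb1, a small heat shock protein, differed by -2.87 ± 0.33 (-2.55 without it). Of 27 p53 targets and apoptosis genes 6 were called lower and 2 higher (8 and 2), with a median of -0.28. The higher calls were Hrk, a pro-death gene of neurons, at 1.68 ± 0.28 (1.69 without it), and Bcl2, its opponent, at 1.47 ± 0.34 (1.20 without it). Among the lower calls were Phlda3 at -1.30 ± 0.38 (-0.78 without it) and Perp at -1.24 ± 0.34 (-1.06 without it). Bak1 and Bcl2l11, also lower, differed by -1.23 ± 0.36 (-0.76 without it) and -1.05 ± 0.22 (-0.87 without it). On only the 6 arrays compared Phlda3 and Bak1 were not called (limma adjusted p = 0.0923 and 0.0899). Perp was not called without 72 h replicate 1 (0.0653).

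Markers of progenitors and of other cell types were checked on the same arrays. Of 41 genes of neural progenitors and radial glia tested, from 49 on the array, 24 were called higher and 4 lower, with a median of 1.23 (25, 4 and 1.42 without 24 h replicate 1). Their summed signal was 32644, 33261 and 44794 at 72 h, against 20003, 14975 and 15293 at 24 h. Ptn, a growth factor of radial glia, had 1683, 1658 and 2239 at 72 h, against 31.4, 120.1 and 59.5 at 24 h, and rose by 4.56 ± 0.36 (4.20 without it). Ednrb, the endothelin B receptor of neural crest and glia, had 323, 336 and 1305 at 72 h, against 5.54, 2.21 and 10.4 at 24 h, and rose by 4.63 ± 0.50 (4.62 without it). Fabp7, of radial glia, rose by 3.21 ± 0.66 (2.61 without it), and Pax6, of dorsal progenitors, by 1.75 ± 0.40 (1.42 without it). Zic5 fell, at -1.43 ± 0.32 (-1.78 without it).

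Glial markers gave no common direction, with 4 called higher and 3 lower of 11 tested in each fit, or 63.6% beside 31.6% of all genes. The members called were not the same, as Olig2 was not called without 24 h replicate 1 (limma adjusted p = 0.0545). Their summed signal was 4593 to 5087 at 72 h, against 4602 to 4928 at 24 h, over the 11 tested. Slc1a2, a glutamate transporter of astrocytes, had 584, 569.8 and 410.4 at 72 h, against 12.3, 84.3 and 96.9 at 24 h, a rise of 2.96 ± 0.42 (2.32 without 24 h replicate 1) on 4 of its 5 probe sets. Aldoc and Aldh1l1, other astrocyte markers, differed by -1.69 ± 0.36 (-1.26 without it) and -1.68 ± 0.38 (-1.19 without it). Gfap, Aqp4 and S100b of astrocytes and Sox10, Mog and Mag of myelinating cells were on the array and did not pass the filter on low signals. No signal of these arrays is listed at 0, so a gene that did not pass is dim and not shown to be absent.

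Muscle and mesoderm markers gave 4 called higher and 7 lower of 20 tested, from 45 on the array (5 and 8 without 24 h replicate 1), and the lineage factors Myod1, Myog and Myf5 did not pass the filter. The share called was 55.0%, beside 31.6% of all genes. The higher calls were Isl1, Acta2, Actc1 and Foxc1. Among the lower calls were Tcf15 at -3.02 ± 0.30 (-2.78 without 24 h replicate 1) and Pecam1 at -2.18 ± 0.32 (-2.50 without it). Mylpf and Tnnt1, also lower, differed by -1.89 ± 0.25 (-1.71 without it) and -1.46 ± 0.30 (-1.28 without it). Acta2, smooth muscle actin, had 1287, 1169 and 818 at 72 h, against 111, 155 and 39.4 at 24 h, a rise of 3.35 ± 0.76 (3.48 without it) on the brightest of its 3 probe sets, while the other two were not higher. It was also uneven in uninduced cells, at 80.7 to 618. Tagln, its companion in contractile cells and on the fibroblast list, rose by 3.20 ± 0.79 (3.36 without it). The list's median was -0.61 (-0.49 without that array). Its summed signal was 3838 to 4660 at 72 h, against 1749 to 2319 at 24 h. Without Isl1, given above as a neuronal factor, the sums were 2073, 1938 and 1447 at 72 h, against 2275, 1655 and 1666 at 24 h, and the groups overlapped. Without Acta2 as well they were 785, 769 and 628 at 72 h, against 2164, 1499 and 1627 at 24 h.

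Neural crest markers gave 5 called higher and 1 lower of 18 tested (6 and 3 without 24 h replicate 1), with summed signals of 6693 to 12196 at 72 h, against 1767 to 1978 at 24 h. Crabp1 alone made up most of the sum at 72 h. Sox10, Tfap2b and Dct did not pass the filter. Fibroblast and feeder markers gave 5 called higher and 3 lower of 16 tested (7 and 3), with sums of 3083 to 3861 at 72 h, against 2126 to 3873 at 24 h, and Col1a1, Col3a1, Dcn and Lum did not pass. Mesendoderm and endoderm markers gave 5 higher and 2 lower of 22 tested (7 and 2), with sums of 2879 to 6539 at 72 h, against 2622 to 7209 at 24 h. Foxa2, which is also a floor plate gene, rose by 1.79 ± 0.34 (2.23 without it), and Gata4, Afp and Alb did not pass. Trophoblast markers gave 3 calls of 13 tested, each of them lower (2, each lower, without that array), Tfap2c among them. Their sums were 881 to 1191 at 72 h, against 1549 to 4419 at 24 h. The shares called were 33.3% for neural crest, 31.8% for mesendoderm and endoderm and 23.1% for trophoblast markers, beside 31.6% of all genes. Neural crest and mesendoderm were thus near the share of all genes and trophoblast was below it. Fibroblast and feeder markers were above it. The part of cells of these kinds in the differences above was not tested.

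The calls that turned on 24 h replicate 1 were 281 genes called only with it and 1348 called only without it, and no gene was called in opposite directions. The largest rises that appeared only without it were Jpt1, Ndrg1, Cubn, Gpc1 and Sdc1. Jpt1 had 3449.6, 3017 and 2904 at 72 h, against 3584, 411 and 738 at 24 h, a difference of 1.57 ± 0.60 (2.46 without 24 h replicate 1) with adjusted p = 0.0613 on all arrays and 9.3e-05 without it. Sdc1, a heparan sulphate proteoglycan, had 428, 354 and 535 at 72 h, against 490.3, 111 and 144 at 24 h, a difference of 1.04 ± 0.45 (1.65 without it). In both genes 24 h replicate 1 read as high as the 72 h arrays.

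The largest falls that appeared only without it were Stra8, Lrrc34, Neat1, Zfp936 and Sycp3. Neat1, a nuclear long non-coding RNA, had 126, 108 and 100.2 at 72 h, against 78.3, 687 and 806 at 24 h, a difference of -1.58 ± 0.64 (-2.58 without 24 h replicate 1). Sycp3, of the meiotic chromosome axis, had 198, 213 and 138 at 72 h, against 77.1, 777 and 927 at 24 h, a difference of -1.07 ± 0.66 (-2.14 without it). On both, that array was below every 72 h array. Stra8, the retinoic-acid-induced gene of meiotic entry, had 40.7, 22 and 365 at 72 h, against 519, 391 and 3531 at 24 h. Replicate 3 was the brightest array at both times, and adjusted p was 0.0605 on all arrays and 0.0427 without 24 h replicate 1. On all arrays with a replicate block limma's adjusted p was 0.0011.

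Among genes called only with it, the largest rises were Olig2, Tmem47, Vgll3, Tent5a and Insyn2a and the largest falls Pdzd4, Wfdc2, Fgf5, Fntb and Foxd4. Olig2, a bHLH factor of oligodendrocyte and motor neuron progenitors, had 318, 359.5 and 19.5 at 72 h, against 14.5, 29.4 and 6.5 at 24 h. It was dim on 72 h replicate 3, inside the 24 h range, and its difference was 2.39 ± 0.83 (2.36 without 24 h replicate 1) (adjusted p = 0.0449, and 0.0545 without 24 h replicate 1). Wfdc2, a secreted protease-inhibitor-like protein, had 52.4, 69.5 and 34.3 at 72 h, against 415, 145 and 80.1 at 24 h, a difference of -1.50 ± 0.48 (-0.91 without it). In the 5 falls 24 h replicate 1 was the brightest array.

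Some calls made in both of these fits did not hold in others. When only the 6 arrays compared were fitted, Neurod4, Sox2, Adam10, Mib1, Tcf4, Zeb1, Zeb2, Ptbp1, Ptbp2, Pcna, Dnmt1, Dnmt3b, Dnmt3l, Tet1, Actl6a and Hormad1 were not called, with adjusted p from 0.0511 (Sox2) to 0.157 (Actl6a). Of the other genes described, Gfra3, Prdm14, Dusp6, Lefty2 and Eomes lost the call when some 1 array other than 24 h replicate 1 was left out, with adjusted p of at most 0.105, 0.127, 0.0536, 0.0551 and 0.0611. Bcl2 lost it with a pseudocount of 1 (adjusted p = 0.0579) and Lss when all its probe sets were averaged (0.0664). That averaging also cost Ptbp1, Tet1 and Actl6a the call (limma adjusted p = 0.2, 0.11 and 0.0979).

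**Figure D5:**
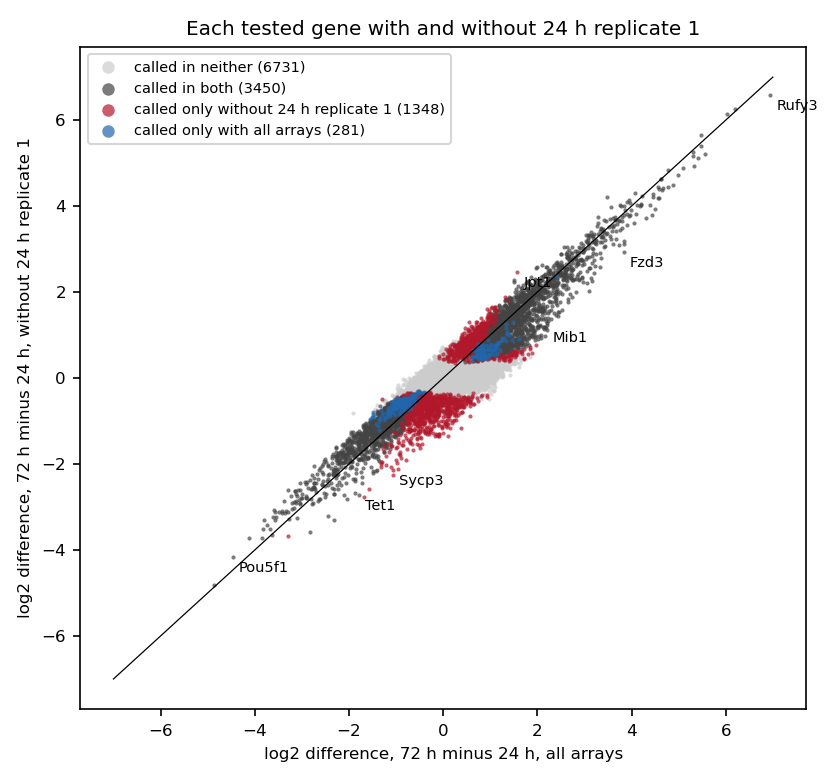
Log2 difference, 72 h minus 24 h, of each gene tested from the fit without 24 h replicate 1 (vertical axis) against the fit on all arrays (horizontal axis), with points coloured by the fit in which the gene was called. The largest changes, such as Rufy3 (6.57 and 6.95) and Pou5f1 (-4.17 and -4.47), stay near the line of equality, while Jpt1 (2.46 and 1.57) and Sycp3 (-2.14 and -1.07) lie off it.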

How the data were processed

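RNA of 12 samples of mouse ES cells was read on 12 Affymetrix arrays, and the 72 h and 24 h groups are compared here. The deposited values are signal intensity on a linear scale, 1 per probe set, which the authors computed in MAS5 according to GEO's processing field (per the submitters' processing notes). The sources used here give no version, settings or detection calls. The 2% trimmed mean was 150 on each array, and the authors' scaling was kept. Identical values were found on no pair of arrays. Precision is limited by how many arrays there are.

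Of 45101 probe sets, 64 were controls, 34945 had 1 gene symbol in the platform annotation (34741 matched by Entrez ID to the GRCm38.p6 gene table), 932 had several and 9160 none. The brightest probe set by mean signal stood for each of 18193 genes. A gene was tested where it exceeded the array's median (percentile 50) on 3 arrays of any group, which left 11810. Genes low at one time could thus be tested through another time where they were high. For such genes the filter partly fixes the direction of the difference. One model with 4 group terms was fitted to log2(signal + 16) of all 12 arrays (R 4.3.3, limma 3.58.1; lmFit, contrasts.fit, eBayes with an intensity trend, two-sided), and adjusted by Benjamini-Hochberg. The procedure was tested on simulated data. Replicate numbers were not used as pairs in the main fit. The deviations of same-numbered 72 h and 24 h arrays from their group means correlated at 0.102, 0.031 and 0.264. Since 24 h replicate 1 weighs on every 24 h deviation, these values cannot show whether replicate numbers pair the samples.

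The comparison, the 40 gene lists (1504 genes) and the naming rule were chosen with earlier results of these data known. The lists were described by counts and medians and not tested. The rule named 11 fixed genes, the 15 largest rises and 15 largest falls that were called in both fits and whose groups do not overlap, up to 4 rises and 4 falls per list, and 5 of each direction among genes called only with or only without 24 h replicate 1. Symbols of unnamed transcripts were left out. Other genes named, Actl6a, Adam10, Asns, Ccnb2, Cdk1, Cdkn1b, Dclk1, Dnmt1, Dnmt3b, Dusp6, Ebf1, Esrrb, Eya1, Eya4, Fabp7, Fos, Hes1, Hey1, Hormad1, Hoxa5, Hoxb4, Kif5c, Lefty2, Map2, Mapt, Mcm6, Mki67, Myt1, Nrcam, Nrp1, Ntrk2, Ntrk3, Pax6, Pcna, Prrxl1, Ptbp2, Robo1, Robo3, Shox2, Sox11, St18, Stmn1, Stmn4, Syt1, Tcf12, Tuba1a and Zfp42, were chosen for their role after their values were seen, as were the genes said not to have passed the filter. Alternatives were pseudocounts of 1 and 64, the filter, quantile normalization, median centring, array weights, all probe sets averaged, no intensity trend, only the 6 arrays compared, a fold threshold in the test, a replicate block and each array left out. Combinations of median centring, quantile normalization or the block with 24 h replicate 1 left out were added after seeing the data.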

Additional observations from a re-analysis of the deposited data

How the results depend on the processing

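The count of 3731 called genes was 2021 on only the 6 arrays compared, 567 when the test asked for a log2 difference beyond 1, and 4203 with a replicate block (same numbers as pairs, which the labels do not state). Leaving out 1 array gave 2476 (without 72 h replicate 2) to 4798 (without 24 h replicate 1). Calls higher (1939) were 1202 on the 6 arrays and 1167 with the filter at percentile 75, and 1346 to 2399 with 1 array left out. Calls lower (1792) were 819 on the 6 arrays, 2950 with median centring and 2758 with a replicate block when 24 h replicate 1 was also left out, and 1123 (without 72 h replicate 2) to 2399 with 1 array left out, with 1145 without 72 h replicate 1. Calls past a log2 difference of 1 (2670) were 1671 with a pseudocount of 64 and 1733 with the stricter filter, and 2195 to 3390 with 1 array left out. Fewer genes are tested under that filter, and fewer arrays enter the others; for the rest the cause was not tested. Rises past 3 log2 units outnumbered falls with pseudocounts of 1 (348 and 109) and 64 (53 and 7) too. The array-weight fit stopped before its tolerance was met.

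Of 244 genes named by the rule 230 were called, and 168 of these kept direction and call under every alternative that gave them a value, while 49 lost the call on the 6 arrays and 16 without 24 h replicate 1. The filter at percentile 75 left 192 of the 244, and the fold threshold was applied only to the count of all genes. Of 47 other genes given for their role 39 were called, and 30 of these kept direction and call, with 7 lost on the 6 arrays. Id1 (0.03) ran from -0.43 to 0.54 with 1 array left out, at -0.43 without 72 h replicate 3, -0.28 and -0.17 without 24 h replicates 2 and 3, and was -0.14 with median centring. Cdkn1c (-0.10) ran from -0.33 to 0.06 with 1 array left out, above 0 without 24 h replicate 1 (0.06) and without 72 h replicate 3 (0.03), and was 0.15 with quantile normalization, 0.09 with array weights, and 0.23 with quantile normalization or 0.21 with the block when 24 h replicate 1 was also left out. Hoxa5 (0.07) ran from -0.84 (without 72 h replicate 3) to 0.68 with 1 array left out, at -0.20 and -0.26 without 24 h replicates 1 and 2, and was -1.17 with array weights, and -0.10 with median centring and -0.24 with quantile normalization (-0.33 and -0.40 when 24 h replicate 1 was also left out). Mki67 (0.40) ran from -0.80 (without 24 h replicate 1) to 1.01, and was -0.66 with array weights and, with that array left out, -0.92 with median centring, -0.74 with quantile normalization and -0.86 with the block. Hoxb4 (1.16) was -0.11 with array weights. Stmn1 (0.14) and Tuba1a (0.14) were -0.03 and -0.02 with median centring, and 0.60 and 0.50, both called, with quantile normalization. Of the 40 list medians 9 changed sign under some setting: the Notch, glial and Nodal lists without 24 h replicate 1, mesendoderm, fibroblast, neural crest and chromatin with quantile normalization, and Wnt and retinoic acid with both quantile normalization and median centring.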
